A study of Rattus norvegicus with 196 samples.

Results

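The lateral septum (LS) was compared with the medial septum (MS) of rats that received no drug. The 8 Sham libraries of these regions, 4 LS and 4 MS, were chosen by region and treatment from the 196 libraries of the series and carry the replicate numbers 1, 3, 4 and 5. Sham rats were male Long-Evans rats, 2 months old at the start, given plain water for 6 weeks. The other treatment group (FT) drank water with the antidepressant fluoxetine at 18 mg/kg body weight per day over the same 6 weeks. The 4 LS and 4 MS libraries of FT rats entered only as a second set from other animals. Each library was made from punches of one region pooled over 10 animals out of 40 per treatment, so that single animals cannot be seen. A punch holds all cells of its site, and fewer cells of a type cannot be told apart from less RNA per cell.

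The septum lies between the lateral ventricles of the forebrain. Its medial part, with the diagonal band, is known for cholinergic neurons, parvalbumin-positive GABA neurons that fire with the hippocampal theta rhythm, and a smaller group of glutamatergic neurons. All of these project to the hippocampus. The lateral part consists mainly of GABA neurons, many of which carry peptides such as somatostatin, neurotensin or enkephalin. It receives hippocampal input and sends axons to the hypothalamus. It borders the striatum and the nucleus accumbens, and both parts lie close to the ventricle with its ependymal lining and choroid plexus.

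Counts on transcripts lay between 3452944 and 14667983 per Sham library. The LS library of replicate 3 stood apart. It had the lowest total, 79.5% of its counts fell on its 50 most abundant transcripts, and 13993 transcripts were detected in it. In the MS library of replicate 3 this share was 65.2% and in the MS library of replicate 1 it was 42.1%, whereas the remaining Sham libraries had between 27.3% and 29.9%. The common biological coefficient of variation from edgeR was 0.287 in Sham and 0.129 in FT, and without the pair of replicate 1 it was 0.184 in Sham.

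In Sham rats, 46 of 13452 transcripts (0.342%) were differentially expressed between LS and MS (edgeR's quasi-likelihood test with the replicate number as a block). Calls required that the fold-change on the log2 scale (log2FC) be 0.322 or more in size, and that p after Benjamini-Hochberg adjustment not exceed 0.1. SE is the standard error of a log2FC. Of these, 19 (0.141%) were higher in LS, with a log2FC from 1.19 to 2.65, and 27 (0.201%) were higher in MS, with a log2FC from -1.30 to -3.50. A positive log2FC stands for a higher level in LS throughout. A gene name was at hand for 16 of the 46, 10 higher in LS and 6 higher in MS. The names come from a table of genes that the study found altered by fluoxetine in several regions, so genes outside it are seen here by identifier only. In CPM (counts scaled to library size after TMM normalisation), all 46 had the same region higher in 4 of 4 replicate pairs, against 19.8% of the transcripts tested. For 32 of the 46 the lowest library of one region lay above the highest of the other, against 1.61% of the transcripts tested. The 46 were chosen by a test on these same libraries, so both counts follow largely from the choice and are not separate support.

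The calls depended on the pair of replicate 3. Without it edgeR called 0 transcripts, with 850 at an unadjusted p under 0.05 and a smallest adjusted p of 0.134. Of the 45 called transcripts that could still be tested, 45 kept their direction and had an unadjusted p under 0.05. The libraries left had helped to select these transcripts, so this count is not separate support. The same holds for the DESeq2 fits that follow. DESeq2 called 196 of 15373 transcripts (1.27%) on all 8 libraries, 101 (0.657%) higher in LS and 95 (0.618%) higher in MS, including the 46, and 86 of 13995 (0.615%) without replicate 3, including 44 of the 46.

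**Figure D1:**
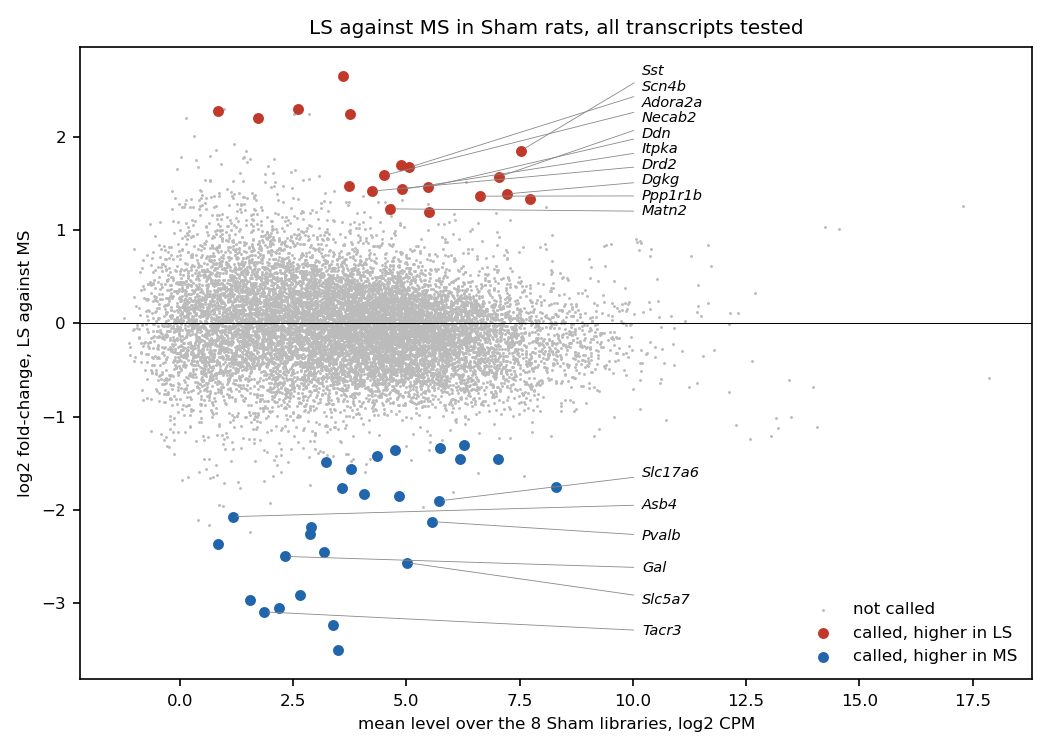
Log2FC of LS against MS in Sham rats (vertical axis) against the mean level over the 8 Sham libraries in log2 CPM (horizontal axis). Each point is 1 of 13452 transcripts, coloured where called, and lines lead to the 16 called genes with a name. The 27 called transcripts higher in MS reach a log2FC of -3.50 and the 19 higher in LS reach 2.65.

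A defining gene of each neuron class known for the medial septum was called higher in MS. These were the cholinergic gene Slc5a7, the parvalbumin gene Pvalb and the glutamatergic gene Slc17a6. The receptor Tacr3 and the peptide Gal were also higher there.

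Slc5a7 (ENSRNOT00000014548) encodes the high-affinity choline transporter, which feeds acetylcholine synthesis in nerve endings, and is a defining marker of cholinergic neurons. It was the only gene of the 12 in the cholinergic list that had an identifier, so Chat and Slc18a3 were not analysed here. In replicates 1, 3, 4 and 5, its level was 127, 54.3, 26.6 and 18.9 CPM in MS and 6.11, 9.77, 9.55 and 5.08 CPM in LS. The lowest MS library lay above the highest LS library, and the MS libraries differed widely among themselves. The log2FC was -2.56 (SE 0.45, edgeR adjusted p = 0.0706), higher in MS in 4 of 4 pairs. Among the Sham samples of 25 regions, MS ranked 2 by mean CPM, after the paraventricular nucleus, and LS ranked 16. Within single replicates the MS rank lay between 2 and 8, and the LS rank between 13 and 21.

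Promoters of the called genes were looked up in RefSeq (rat assembly GRCr8), which held 11 of the 16. The 300 bases span the annotated start. They were searched on both strands for the cAMP response element TGACGTCA, to which the activity-dependent factor CREB binds, and for its first 7 letters TGACGTC, which lie within it. This choice was made after the calls were known. Sst held the full element, as did 1.91% of 27457 rat promoters. TGACGTC was found in 4 of the 11, 2 higher in MS (Tacr3, Slc5a7) and 2 higher in LS (Sst, Dgkg), and in 3.34% of all promoters. Those of Slc5a7 (chr9:7953460-7953759, minus strand) and Sst (chr11:90461296-90461595, plus strand) are shown, 1 gene for each direction, with the letters TGACGTC and its reverse complement in capitals. A match of letters does not show that a factor binds there.
Slc5a7: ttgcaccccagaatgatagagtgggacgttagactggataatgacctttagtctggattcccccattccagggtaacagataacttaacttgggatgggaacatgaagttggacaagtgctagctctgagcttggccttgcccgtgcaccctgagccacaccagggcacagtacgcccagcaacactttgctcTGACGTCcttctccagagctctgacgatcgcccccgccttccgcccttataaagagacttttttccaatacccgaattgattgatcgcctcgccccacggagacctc
Sst: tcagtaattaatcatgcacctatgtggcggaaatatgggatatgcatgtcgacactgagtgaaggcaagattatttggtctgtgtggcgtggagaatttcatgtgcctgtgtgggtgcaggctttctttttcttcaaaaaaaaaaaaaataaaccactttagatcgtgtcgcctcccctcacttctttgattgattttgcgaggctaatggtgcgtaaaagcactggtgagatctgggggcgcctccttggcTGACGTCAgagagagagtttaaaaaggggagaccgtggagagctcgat

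Pvalb (ENSRNOT00000067635), the calcium-binding protein parvalbumin of fast-spiking GABA neurons, had 87.5, 106, 86.5 and 23.7 CPM in MS and 20.4, 37.3, 11.8 and 6.93 CPM in LS. The MS library of replicate 5 lay below the LS library of replicate 3, so that the groups overlapped, but MS was higher within each pair. The log2FC was -2.12 (SE 0.27, edgeR adjusted p = 0.0222). LS ranked 24 of 25 regions for this gene and MS ranked 15. The list of fast-spiking neurons had 10 of 19 genes tested, with a median log2FC of -0.36, against -0.04 over all transcripts tested. Apart from Pvalb, 1 of them was called, in the other direction, namely the sodium channel subunit Scn4b. Kcns3 had a log2FC of -1.24 (edgeR adjusted p = 0.407), Nefh, the heavy neurofilament chain, -0.43 (adjusted p = 0.622) and Hcn2, a pacemaker channel, 0.05 (adjusted p = 0.966). Scn8a had 0.51 (edgeR adjusted p = 0.582), with LS higher in 4 of 4 pairs. The log2FC was positive for 3 of the 10 genes. Without its filter for low counts edgeR also called Kcns3 higher in MS.

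Slc17a6 (ENSRNOT00000022383), which encodes the vesicular glutamate transporter VGLUT2 of subcortical glutamatergic neurons, had 75.6, 32.6, 147 and 70.0 CPM in MS. In LS it had 8.02, 18.7, 44.6 and 24.4 CPM. The highest LS library exceeded the lowest MS library, while MS was higher in 4 of 4 pairs. The log2FC was -1.90 (SE 0.36, edgeR adjusted p = 0.0868). By mean CPM, MS ranked 12 of 25 regions for Slc17a6 and LS ranked 17. The other vesicular glutamate transporters had no identifier. Of the GABA genes, Gad2, an enzyme of GABA synthesis, had 114, 158, 141 and 138 CPM in LS and 83.2, 117, 106 and 112 CPM in MS. Its log2FC was 0.35 (SE 0.21, edgeR adjusted p = 0.617) with LS higher in 4 of 4 pairs. Slc6a11, the GABA transporter GAT3 of astrocytes, had a log2FC of -1.26 (edgeR adjusted p = 0.268, DESeq2 adjusted p = 0.0660).

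Tacr3 (ENSRNOT00000012473), the receptor for neurokinin B, had the largest difference among the named genes. It had 5.04, 10.3, 5.13 and 5.495 CPM in MS and 0.432, 0.888, 0.841 and 0.672 CPM in LS, without overlap. The log2FC was -3.09 (SE 0.37, edgeR adjusted p = 0.01997). These levels rest on 34 to 115 reads per library in MS and 1 to 16 in LS. LS ranked last of 25 regions and MS ranked 10.

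Gal (ENSRNOT00000020425), the peptide galanin, had 8.82, 4.53, 1.78 and 18.1 CPM in MS and 3.27, 1.78, 0.229 and 1.51 CPM in LS. The groups overlapped, with MS higher in 4 of 4 pairs. The log2FC was -2.50 (SE 0.46, edgeR adjusted p = 0.0785), and the MS library of replicate 5 held 379 of the reads. Asb4 (ENSRNOT00000012657), which encodes a subunit of ubiquitin ligases, had 3.78, 0.905, 2.26 and 7.74 CPM in MS and 1.42, 0, 0.535 and 1.34 CPM in LS. Its log2FC was -2.07 (SE 0.39, edgeR adjusted p = 0.0879). With a mean under 5 CPM it lay outside the rule for named genes and was named after its values were seen.

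The unnamed transcripts with the largest differences in this direction were ENSRNOT00000009370 and ENSRNOT00000007268. ENSRNOT00000009370 had 27.4, 22.3, 20.4 and 11.8 CPM in MS and 1.30, 1.78, 3.67 and 0.966 CPM in LS. Its log2FC was -3.50 (SE 0.38, edgeR adjusted p = 0.0127). ENSRNOT00000007268 had 26.7, 28.1, 6.85 and 11.9 CPM in MS and 2.78, 4.44, 0.688 and 1.18 CPM in LS, with a log2FC of -3.23 (SE 0.29, edgeR adjusted p = 0.00447). Neither overlapped between the regions. For both, MS ranked 2 of 25 regions after the medial preoptic area.

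In LS, the named genes that were higher were the somatostatin gene Sst and 9 others, among them genes of dopamine and adenosine signalling and genes of dendrites and calcium signalling. Sst (ENSRNOT00000002519), the peptide of a class of GABA neurons, had 364, 718, 22.6 and 72.6 CPM in LS and 55.4, 220.3, 12.2 and 15.3 CPM in MS. LS was higher in 4 of 4 pairs, but the level varied between replicates more than between regions, and the groups overlapped. The log2FC was 1.85 (SE 0.31, edgeR adjusted p = 0.0695). LS had the highest mean of 25 regions, while its rank within single replicates lay between 1 and 7. Matn2 (ENSRNOT00000008361), an extracellular matrix protein of the matrilin family, had 33.1, 21.3, 39.8 and 47.2 CPM in LS and 11.9, 11.2, 15.5 and 20.4 CPM in MS. The groups did not overlap, and the log2FC was 1.23 (SE 0.23, edgeR adjusted p = 0.0868).

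The list of lateral septal neurons had 8 of 20 genes tested, with a median log2FC of 0.55. By edgeR, Sst and Matn2 were called higher in LS (0.141% of all transcripts tested) and 0 were called higher in MS (0.201%). Penk, which encodes the enkephalin precursor, had 612, 338, 248 and 408 CPM in LS and 367, 358, 156 and 205 CPM in MS. Its log2FC was 0.54 (SE 0.27, edgeR adjusted p = 0.560), with LS higher in 3 of 4 pairs. Htr1a, the serotonin 1A receptor, had 3.95, 4.44, 0.229 and 3.19 CPM in LS and 1.26, 6.94, 0.274 and 1.86 CPM in MS, and the log2FC was 0.57 (edgeR adjusted p = 0.675). Wfs1 had a log2FC of 0.63 (edgeR adjusted p = 0.552), and Cartpt, the precursor of the CART peptide, had -0.61 (adjusted p = 0.568). Fxyd6, a regulator of the sodium-potassium pump, had 12.1, 1.78, 0.688 and 3.11 CPM in LS and 8.40, 27.2, 1.78 and 8.03 CPM in MS. Its log2FC of -1.18 (SE 0.52, edgeR adjusted p = 0.544) was the lowest of the list, with MS higher in 3 of 4 pairs, and in FT it was -1.17 (edgeR adjusted p = 0.00854). Without replicate 1, edgeR called Sst and Matn2 higher in LS and Fxyd6 and Cartpt higher in MS, and the median of the list was 0.29.

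Of 15 neuropeptide genes with an identifier, 10 passed the low-count filter. By edgeR 1 was called higher in LS (Sst) and 1 higher in MS (Gal), where 0.342% of all transcripts tested were called. Hcrt, the precursor of the hypocretins, had 10.4, 12.4, 0.535 and 0.756 CPM in LS and 0.735, 8.75, 0.205 and 0.526 CPM in MS, with a log2FC of 1.51 (SE 0.57, edgeR adjusted p = 0.503). Cck had a log2FC of -0.38 (edgeR adjusted p = 0.699), Vip of -0.74 (adjusted p = 0.626) and Vgf of -0.05 (adjusted p = 0.960). Oxt, Avp, Rln3, Ucn and Npvf did not pass the filter. Without the filter edgeR also called Hcrt higher in LS and Oxt higher in MS. With the filter it added Cartpt in MS when replicate 1 was left out, and called 0 of the list without replicate 3 or 5.

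Most tested genes on a list for the medium spiny neurons of the striatum were called higher in LS. Of the 13 on this list 6 were tested, and 4 of the 6 were called higher in LS, against 0.141% of all transcripts tested. Their median log2FC was 1.39, against -0.04 over all transcripts. The summed level of the list was 512, 481, 352 and 520 CPM in LS and 169, 224, 171 and 161 CPM in MS, without overlap. Without replicate 4 edgeR called 2 of the 6 and without replicate 3 or 5 it called 0, while DESeq2 called 6 on all libraries and 5 without replicate 3.

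Adora2a (ENSRNOT00000001759) and Drd2 (ENSRNOT00000045944) encode an adenosine and a dopamine receptor of the indirect pathway. Adora2a had 36.6, 22.2, 44.3 and 33.5 CPM in LS and 9.66, 11.2, 16.9 and 8.08 CPM in MS. Drd2 had 23.5, 23.98, 23.5 and 40.9 CPM in LS and 9.24, 10.3, 9.86 and 10.7 CPM in MS. Neither overlapped between the regions. The log2FC was 1.59 (SE 0.27, edgeR adjusted p = 0.0695) for Adora2a and 1.42 (SE 0.25, adjusted p = 0.0706) for Drd2.

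Ppp1r1b (ENSRNOT00000037752) encodes DARPP-32, an inhibitor of protein phosphatase that acts downstream of dopamine receptors. It had 141, 163, 127 and 131 CPM in LS and 54.8, 79.7, 57.9 and 30.4 CPM in MS. The LS libraries lay close together and above all MS libraries, and the log2FC was 1.36 (SE 0.26, edgeR adjusted p = 0.0868). Scn4b (ENSRNOT00000030152), the sodium channel beta4 subunit, had 63.9, 46.2, 21.9 and 72.9 CPM in LS and 14.6, 22.9, 8.35 and 15.6 CPM in MS. Its LS library of replicate 4 lay just below the MS library of replicate 3, and the log2FC was 1.67 (SE 0.28, edgeR adjusted p = 0.0695).

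The other list members narrowly missed the threshold. Rasd2 had a log2FC of 1.18 (SE 0.23, edgeR adjusted p = 0.101) and Syndig1l of 1.19 (SE 0.25, adjusted p = 0.112). Neither overlapped between the regions.

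These genes had their highest Sham means in the nucleus accumbens for 4 of the 6. Adora2a reached a mean of 134 CPM in the accumbens core (NAcC) and 111 CPM in the shell (NAcSh), where LS had 33.0 CPM and ranked 5 of 25 on the scale of all Sham libraries. Ppp1r1b had 405 CPM in NAcC and 135 CPM in LS, and Drd2 had 65.7 CPM in NAcC and 27.0 CPM in LS, with LS again at rank 5 for both. Syndig1l had 86.1 CPM in NAcC and 32.4 CPM in LS. Rasd2, by contrast, had similar means of 172 CPM in LS and 190.1 CPM in NAcC, and was highest in the basolateral amygdala with 195 CPM. Scn4b, which is also on the list of fast-spiking neurons, was highest in the region labelled Nts. Whether striatal tissue or septal neurons carried these transcripts in the LS punches was not tested.

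Dgkg (ENSRNOT00000002452), a diacylglycerol kinase, and Necab2 (ENSRNOT00000020341), a neuronal calcium-binding protein that interacts with an adenosine receptor, were on none of the lists. Dgkg had 257, 191, 216 and 198 CPM in LS and 83.0, 46.2, 108 and 92.6 CPM in MS. Its log2FC was 1.39 (SE 0.25, edgeR adjusted p = 0.0706). Necab2 had 261, 343, 82.4 and 136 CPM in LS and 67.3, 68.2, 40.4 and 59.9 CPM in MS, with a log2FC of 1.57 (SE 0.27, edgeR adjusted p = 0.0695). Neither overlapped between the regions. LS ranked 2 of 25 regions for both, after the ventral dentate gyrus for Dgkg and the habenula for Necab2.

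Itpka (ENSRNOT00000007247), an inositol trisphosphate kinase that bundles actin in dendritic spines, had 68.8, 49.7, 16.6 and 41.6 CPM in LS and 24.1, 16.9, 6.91 and 13.8 CPM in MS. Its log2FC was 1.44 (SE 0.22, edgeR adjusted p = 0.0695). Ddn (ENSRNOT00000019854) encodes dendrin, a postsynaptic protein of forebrain neurons. It had 62.4, 156, 10.5 and 24.6 CPM in LS and 21.5, 70.9, 4.38 and 5.73 CPM in MS, with a log2FC of 1.46 (SE 0.25, edgeR adjusted p = 0.0695). For both genes LS was higher in 4 of 4 pairs and the groups overlapped. With no replicate block and without the LS library of replicate 3, the log2FC of Ddn was 0.36 and that of Sst 1.02.

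The list of cortical and hippocampal excitatory neurons, to which Ddn belongs, had 9 of 15 genes tested and a median log2FC of 0.47. The log2FC was positive for 7 of the 9. By edgeR with its low-count filter Ddn was the 1 member called on all 8 libraries. DESeq2, and edgeR without the filter, called Ddn and Camk2a, and edgeR without replicate 1 called Ddn and Lamp5. Camk2a, the alpha subunit of the calcium/calmodulin-dependent kinase, had 82.4, 63.1, 30.3 and 106 CPM in LS and 16.4, 33.5, 22.3 and 60.8 CPM in MS. Its log2FC was 1.06 (SE 0.31, edgeR adjusted p = 0.317, DESeq2 adjusted p = 0.0838). Nrgn, or neurogranin, had a log2FC of 0.47 (edgeR adjusted p = 0.568) and Lamp5 of 0.72 (adjusted p = 0.393). The members with a negative value were Neurod1, a transcription factor, at -0.62 (edgeR adjusted p = 0.728) and C1ql3 at -0.38 (adjusted p = 0.729), each with MS higher in 3 of 4 pairs.

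Among the unnamed transcripts, ENSRNOT00000065345 and ENSRNOT00000002066 had large differences in this direction. ENSRNOT00000065345 had 3.52, 78.2, 0.459 and 1.18 CPM in LS and 0.315, 13.3, 0.137 and 0.143 CPM in MS, so that its level was dominated by replicate 3. Its log2FC was 2.65 (SE 0.38, edgeR adjusted p = 0.0478). ENSRNOT00000002066 was even across replicates, with 11.5, 9.77, 10.3 and 8.65 CPM in LS and 1.99, 2.41, 2.19 and 1.58 CPM in MS. Its log2FC was 2.30 (SE 0.30, edgeR adjusted p = 0.0268), and LS had the highest mean of 25 regions. On the scale of all Sham libraries the mean was 9.71 CPM in LS, 8.31 CPM in the accumbens shell and 5.92 CPM in the core. Within single replicates the LS rank lay between 1 and 3.

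**Figure D2:**
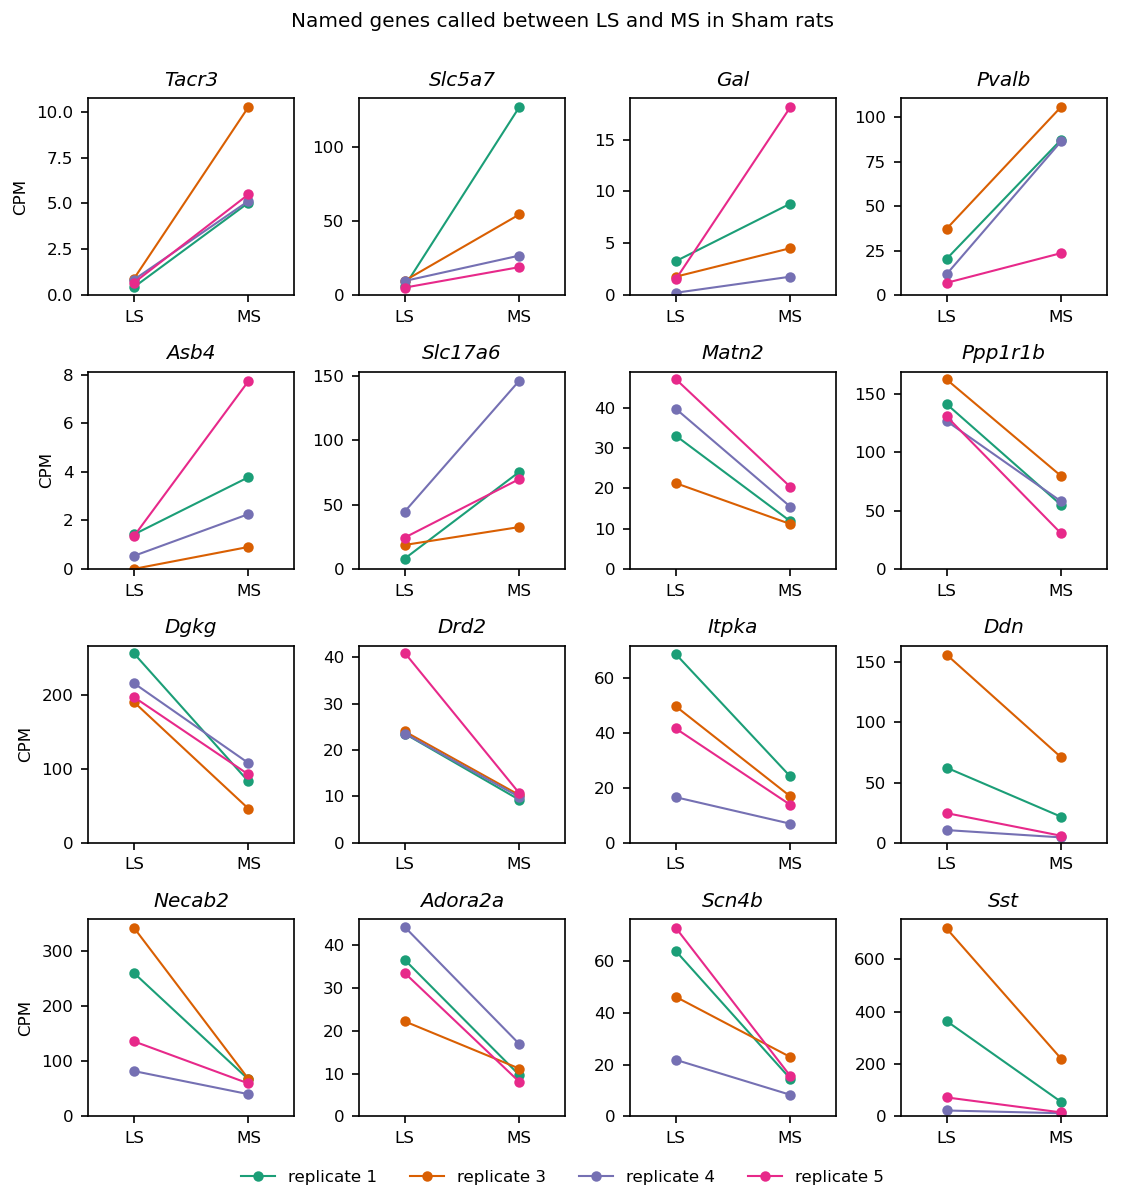
Level in CPM (vertical axis, linear and from 0) of the 16 named genes called in Sham, in LS and MS (horizontal axis). Each point is 1 library and each line joins the LS and MS libraries of a replicate. Every line falls or rises in the direction of the call, while several genes, among them Sst, Ddn and Gal, differ more between replicates than between regions.

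In the lists of receptors for glutamate, GABA and glycine, acetylcholine and serotonin, neither edgeR with its low-count filter nor DESeq2 made a call on all 8 libraries. Without the filter edgeR called Glra1, a glycine receptor subunit, higher in MS. The genes tested by edgeR were 7 of glutamate receptors, 5 of GABA and glycine receptors, 2 of acetylcholine receptors and 1 of serotonin receptors. The largest value among them was that of Gabrd, the delta subunit of extrasynaptic GABA receptors, with a log2FC of 0.91 (SE 0.27, edgeR adjusted p = 0.326). Gabrd had 25.05, 35.5, 13.99 and 15.996 CPM in LS and 11.4, 19.6, 11.2 and 5.59 CPM in MS. Grm4, a presynaptic metabotropic glutamate receptor, had 0.76 (edgeR adjusted p = 0.552). The transcription factors Zfhx4 and St18 had a log2FC of -0.29 (edgeR adjusted p = 0.699) and -0.39 (adjusted p = 0.681), and the immediate early gene Fos had -0.32 (adjusted p = 0.672).

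Markers of non-neuronal cells were measured to compare the make-up of the punches, and edgeR with its low-count filter on all 8 libraries called none of them in Sham. The astrocyte gene Agt was called higher in MS by DESeq2, and by edgeR without replicate 1 or without the low-count filter. Without that filter edgeR also called Etnppl, Ermn, Tspan2 and Ogn higher in MS. Of 20 oligodendrocyte genes, 4 had a positive log2FC, and the median was -0.36. Their summed level was 4824, 1992, 5739 and 3061 CPM in LS and 4829, 4233, 5690.1 and 4378 CPM in MS, with the lowest value in the LS library of replicate 3. Ermn, a myelin protein, had the lowest log2FC of the list, -0.94 (SE 0.38, edgeR adjusted p = 0.533).

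The 7 astrocyte genes had a median log2FC of -0.15. Agt, angiotensinogen, had 386, 284, 44.6 and 83.3 CPM in LS and 479, 727, 142 and 201 CPM in MS, with a log2FC of -1.201 (SE 0.28, edgeR adjusted p = 0.171, DESeq2 adjusted p = 0.00864). MS was higher in 4 of 4 pairs. Apoe, which astrocytes secrete, had 13921 CPM in the LS library and 18922 CPM in the MS library of replicate 3 and between 258 and 901 CPM in the other Sham libraries. Its log2FC was -0.01 (edgeR adjusted p = 0.996). Median log2FC was -0.19 for 6 microglial genes, 0.10 for 5 endothelial and mural genes and -0.04 for 4 genes of meningeal fibroblasts.

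Genes of the ventricular wall were present in both regions. The 8 ependymal genes had a median log2FC of 0.45, and 7 of the 8 were positive. Tekt1, a protein of motile cilia, had the highest value, 0.92 (SE 0.31, edgeR adjusted p = 0.427). The 4 choroid plexus genes, Ttr, Kcnj13, Sostdc1 and Mfrp, summed to 3248, 3395, 2467 and 4502 CPM in LS and 1166, 3389.99, 5251 and 2837 CPM in MS. LS was higher in replicates 1 and 5, MS was higher in replicate 4, and the values of replicate 3 were nearly equal. The Sham mean of Ttr was 75.3 CPM in NAcSh and 3.69 CPM in NAcC. In every Sham septal library Ttr was at 1136 CPM or more.

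The 7 mitochondrially encoded genes with an identifier all had a negative log2FC, with a median of -1.09. None was called by DESeq2 or by edgeR with its low-count filter on all 8 libraries. Without that filter edgeR called 5 of the 7 higher in MS, namely MT-ATP8, MT-CO2, MT-ND2, MT-ND4L and MT-ND5. The summed level of the 7 genes was 10990.5, 30339.7, 32089 and 24095 CPM in LS and 52322.5, 63802, 30803 and 25400.5 CPM in MS. MS was clearly higher in replicates 1 and 3, the replicates in which the MS or both libraries had a high share of counts in few transcripts, and the pairs of replicates 4 and 5 differed little. The part of these differences between libraries in the calls above was not tested.

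**Figure D3:**
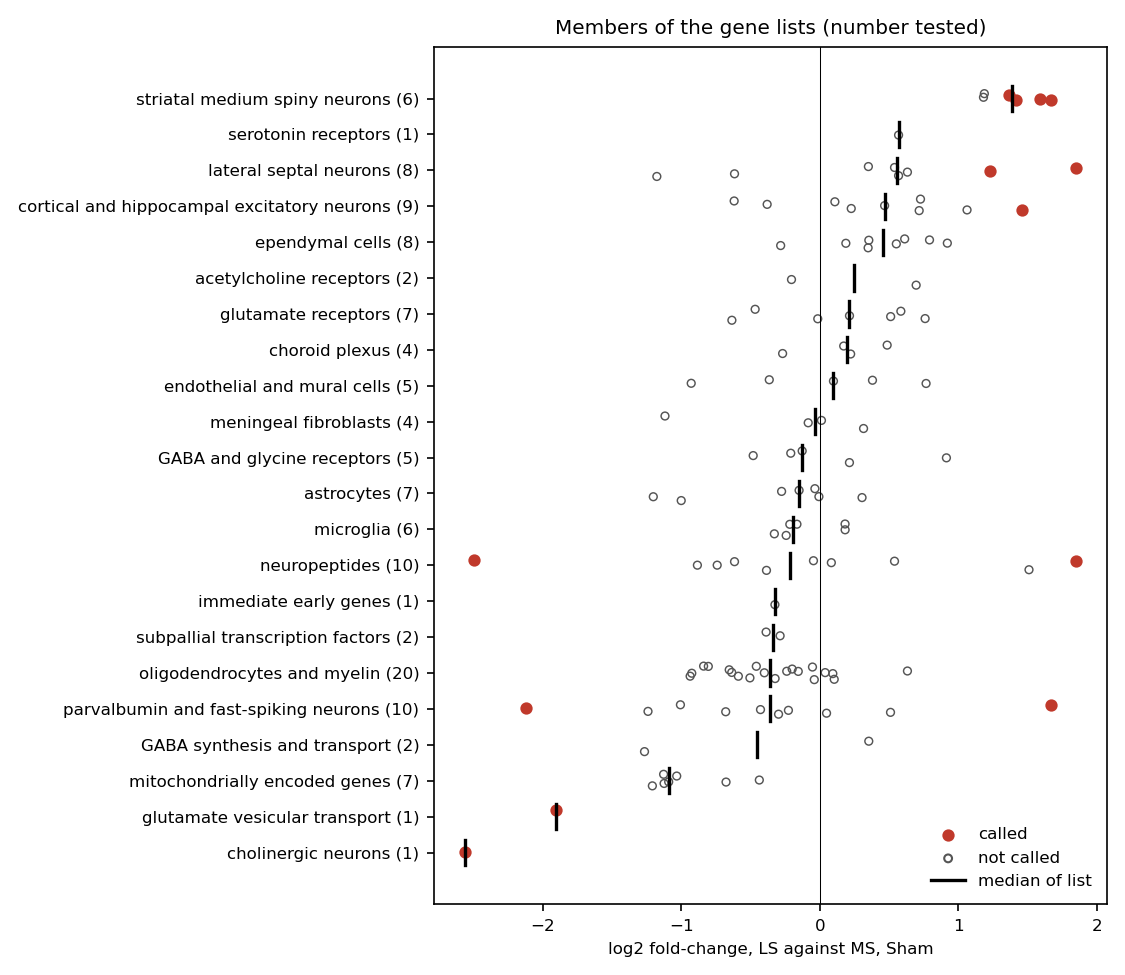
Log2FC of LS against MS in Sham (horizontal axis) for the tested members of 22 gene lists (vertical axis, with the number tested). Filled points were called, open points were not, and bars mark the median of a list. The striatal list lies to the right, with a median of 1.39, and the mitochondrially encoded genes lie to the left, with a median of -1.09.

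The same regions of FT rats, which come from other animals, gave a second measurement. There, 1284 of 13569 transcripts (9.46%) were called, 729 (5.37%) higher in LS and 555 (4.09%) higher in MS. Of the 46 transcripts called in Sham, 44 were tested in FT, 44 had the same direction and 43 were called. These 43 are 93.5% of the Sham calls and 3.35% of the FT calls. Over the 13117 transcripts tested in both, 58.9% had the same direction. Sham and FT libraries with the same number were processed in parallel, and replicate 3 had a high share of counts in few transcripts in both. With FT replicate 3 left out, 39 of 46 were called in the same direction.

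The magnitudes were close for the genes of medium spiny neurons and for Pvalb, Slc5a7 and Matn2. Pvalb had a log2FC of -2.07 in FT (SE 0.13) and -2.12 in Sham, Matn2 of 1.21 and 1.23, and Drd2 of 1.52 and 1.42. Ppp1r1b had 1.57 in FT and 1.36 in Sham, and Slc5a7 had -2.32 and -2.56. For other genes the FT value was nearer 0. Ddn had a log2FC of 0.41 in FT (SE 0.11, edgeR adjusted p = 0.0425) against 1.46 in Sham, and Sst had 1.09 against 1.85. Gal was the 1 transcript tested in FT and not called there, with a log2FC of -0.70 (SE 0.40, edgeR adjusted p = 0.365). It had 10.1, 10.8, 5.61 and 2.87 CPM in MS and 2.48, 4.18, 3.55 and 5.84 CPM in LS of FT rats, with LS higher in replicate 5. Over the 44 transcripts the median absolute log2FC was 1.76 in Sham and 1.45 in FT. They were chosen by their Sham values.

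The difference between Sham and FT was tested as an interaction of region and treatment over all 16 libraries. Among 14464 transcripts, 0 were called by edgeR (0%), with 627 at an unadjusted p under 0.05 and a smallest adjusted p of 0.260, and DESeq2 called 6. Of the 46 transcripts called in Sham, 7 had an unadjusted interaction p under 0.05. The 46 were chosen by Sham values that also enter this fit, so the 7 cannot be set against the count over all transcripts. For Ddn the difference in log2FC was -1.11 (SE 0.26, edgeR adjusted p = 0.821) and for Gal it was 1.75 (SE 0.69, adjusted p = 0.821), where a positive value stands for a higher log2FC in FT.

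**Figure D4:**
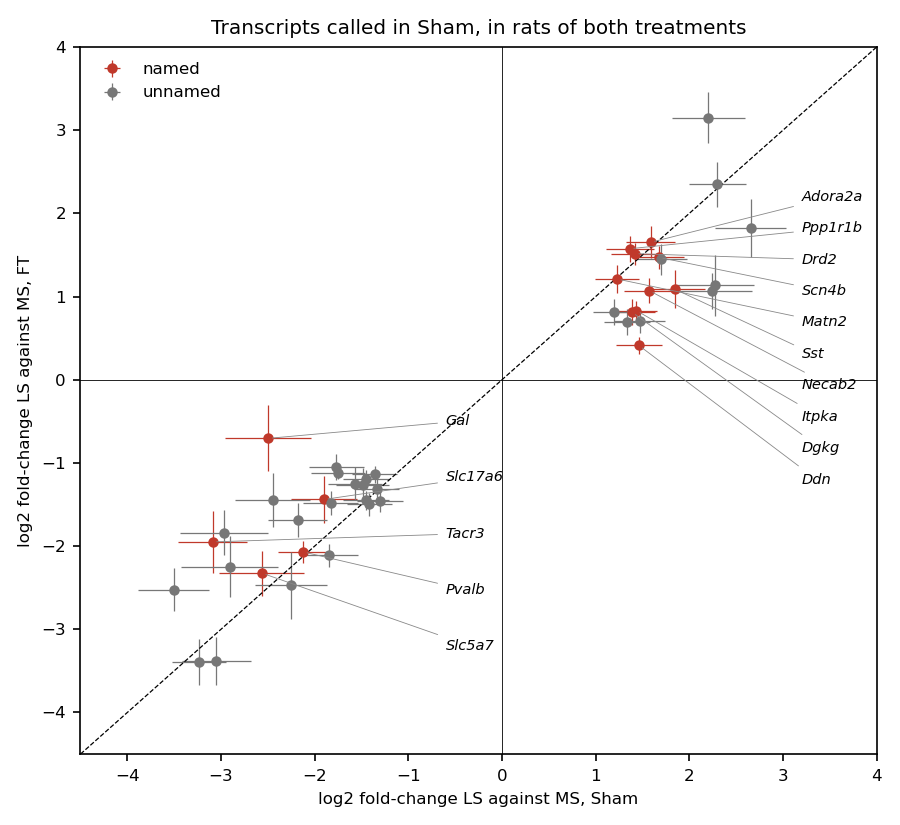
Log2FC of LS against MS in FT (vertical axis) against that in Sham (horizontal axis) for the 44 transcripts called in Sham and tested in FT. Bars are standard errors, the dashed line marks equal values, and named genes are red. All 44 lie in the quadrants of equal direction, with Gal and Ddn nearer 0 in FT.

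**Figure D5:**
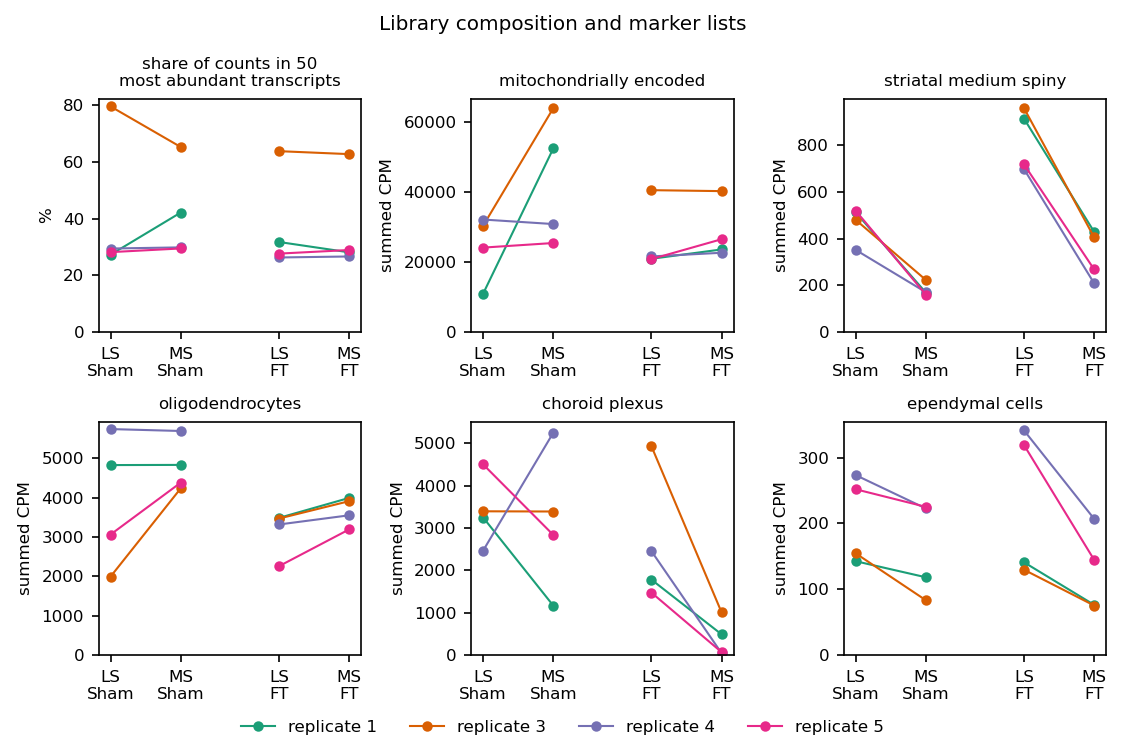
Share of counts in the 50 most abundant transcripts (%) and summed CPM of 5 marker lists (vertical axes, from 0) in LS and MS of Sham and FT rats. Each point is 1 library and lines join the libraries of a replicate. The striatal list is higher in LS in every pair, the mitochondrially encoded genes are higher in MS in Sham replicates 1 and 3, and the choroid plexus genes are higher in LS in all 4 FT pairs.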

How the data were processed

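RNA from punches of LS and MS was sequenced, per the labels with a stranded total RNA kit (another label field says polyA RNA). The authors aligned reads to the rn5 genome with STAR and deposited counts per Ensembl transcript from HTSeq, without normalization; versions and the use of strand are not given in the sources used here, so reads of antisense genes may be mixed. The 5 summary lines of each file were left out of totals and tests. Libraries were grouped by region and treatment. The members and lists were chosen with earlier results of these data known.

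Counts were fitted with edgeR 4.0.16 in R 4.3.3 (TMM scaling, a block for the replicate, and filterByExpr at min.count 10 and min.total.count 15). Standard errors were derived from each log2FC and its F statistic. Same-numbered LS and MS libraries deviated together from their group means (r across transcripts of 0.468, 0.723, 0.867 and 0.758 in replicates 1, 3, 4 and 5), so the numbers were taken as pairs. DESeq2 1.42.0 with the same block, other size factors, no low-count filter, no block, an adjusted p of 0.05 and each replicate left out were the alternatives. The interaction fit had a block for each replicate of each treatment. Steps were tested on simulated data.

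Names came from a supplementary table of the study, which names 1844 of the 29188 transcripts used here, each altered by fluoxetine in several regions by the study's calls, partly on these samples. Named genes were list members, and up to 15 called genes in each direction with the largest log2FC, the same direction in all 4 pairs and a mean of at least 5 CPM in the higher region, plus 2 unnamed transcripts each. Sequences are from RefSeq (GRCr8). Depth lay between 3452944 and 14667983 counts per Sham library, and its part in the precision was not tested. No 2 of the 16 libraries held identical counts.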

Additional observations from a re-analysis of the deposited data

Results flagged for a closer look

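In 3 of 38 groups of 4 Sham libraries examined, 1 library lay far from the other 3 by Dixon's criterion, which chance gives in about 5% of groups. Tacr3 reached 10.3 CPM in the MS library of replicate 3, with 5.04 to 5.495 CPM in the other MS libraries. Drd2 reached 40.9 CPM in the LS library of replicate 5, with 23.5 to 23.98 CPM in the others. The LS library of replicate 3 had 79.5% of its counts in the 50 most abundant transcripts, against 27.3% to 29.5% in the other LS libraries of Sham rats.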

How the results depend on the processing

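For LS against MS in Sham, 46 transcripts were called. The number was 8 at an adjusted p of 0.05, 196 with DESeq2 and 380 without the low-count filter. It was 0 with no replicate block, where 234 had an unadjusted p under 0.05, and the 46 all kept their direction there with 41 at an unadjusted p under 0.05. Leaving out 1 replicate gave 0 (replicate 3) to 266 (replicate 1), with 42 without replicate 4 and 21 without replicate 5. In fits chosen after the data were seen, DESeq2 without replicate 3 called 86, and edgeR with no replicate block and without the LS library of replicate 3 called 0 (239 at an unadjusted p under 0.05). Median-ratio and upper-quartile factors gave 69 and 68 calls, and with the latter 35 were higher in LS and 33 in MS. In FT, 1284 were called, 0 with no replicate block (322 at an unadjusted p under 0.05), and 605 to 1587 with 1 replicate left out. For the interaction, edgeR called 0, DESeq2 6 and edgeR without the low-count filter 44. Leaving out 1 replicate gave 0 to 11, the latter without replicate 1.

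All 16 named genes called in Sham kept their direction under every alternative, each fitted on libraries that had selected them. They stayed called with DESeq2 (also without replicate 3), both other factors, without the filter and without replicate 1, and lost the call with no replicate block or without replicate 3. Without replicate 4, Asb4, Matn2, Ppp1r1b and Drd2 were not called. Without replicate 5, Tacr3, Slc5a7, Pvalb, Slc17a6 and Necab2 were. At an adjusted p of 0.05, Tacr3 and Pvalb were. The cause of these changes was not tested. Some genes had few reads in the shallow libraries of replicate 3, for example 1 read for Tacr3 in LS, and the part of this was not tested.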

Other observations

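In FT rats, genes of the choroid plexus, the secretory epithelium of the ventricles, were higher in LS than in MS. All 4 of 4 were called by edgeR, with a median log2FC of 3.27, where 5.37% of all transcripts tested in FT were called higher in LS. Ttr, the thyroid hormone carrier transthyretin, had 1749, 4898, 2392 and 1421 CPM in LS and 478, 998, 39.3 and 63.5 CPM in MS, a log2FC of 3.59 (SE 0.57, edgeR adjusted p = 0.00390). In Sham its log2FC was 0.22. The mean of Ttr was 3339 CPM in LS and 3103 CPM in MS of Sham rats, against 2615 CPM and 395 CPM in FT. Kcnj13, a potassium channel of this epithelium, had a log2FC of 3.32 in FT and -0.27 in Sham, and the difference had an unadjusted p of 2.8e-05 in the edgeR interaction fit (adjusted p = 0.260). All 8 of 8 ependymal genes were also called higher in LS in FT (again against 5.37% of all transcripts), with a median log2FC of 0.96. Mlf1 had the largest value, 1.70 (SE 0.20, edgeR adjusted p = 0.000853), against 0.35 in Sham. For these lists too, edgeR called no member as different between Sham and FT at an adjusted p of 0.1. This was with its low-count filter and on all 16 libraries. Without the filter it called 44 transcripts, and without replicate 1 it called 11. Whether list members were among these is not given here. The 6 transcripts that DESeq2 called all had a higher log2FC in FT, and whether list members were among them is not given here.

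Hypothalamic peptides were measured in FT as well. Oxt, oxytocin, had 3.61, 262, 1.22 and 0.431 CPM in MS and 0, 2.90, 0.431 and 0.251 CPM in LS of FT rats, a log2FC of -4.96 (SE 0.67, edgeR adjusted p = 0.00166), with by far the highest level in replicate 3. Oxt did not pass the low-count filter in Sham, where replicate 3 again held the highest levels, 36.5 CPM in MS and 17.8 CPM in LS. Cartpt was called higher in MS in FT, with a log2FC of -1.62 (SE 0.16, edgeR adjusted p = 0.000274), and had -0.61 in Sham.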
